A study of Caenorhabditis elegans with 12 samples.

Results

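The mitochondrial ribosomal protein genes of Caenorhabditis elegans were followed through the last stretch of oocyte growth. Members were all genes of the deposited count table whose symbol was mrpl- or mrps- followed by a number, which gave 70 of 46903 genes. Of these, 41 carried an mrpl name, for the large subunit, and 29 an mrps name, for the small subunit. All 70 passed the filter on low counts, which kept 8718 genes in all, so no member was lost to it.

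The study sequenced RNA from 12 oocytes of adult, untreated wild-type worms, 4 each from positions -5, -3 and -1 of the gonad. Numbering starts at the spermatheca, which makes -1 the oldest oocyte, next to be ovulated, and -5 the youngest of those sampled. All groups shared the genotype, the stage and the absence of treatment, and differed in position. Each library was 1 oocyte and the labels name no animals, so each position was taken as 1 sample, no test between positions is given, and the spread over 4 oocytes may include differences between animals.

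The mitochondrial ribosome translates the few messenger RNAs made from the mitochondrial genome, which encode core subunits of the respiratory chain and of ATP synthase. Its ribosomal RNAs are made inside the organelle, whereas its proteins are encoded in the nucleus, translated in the cytoplasm and imported. Some of these proteins descend from bacterial ribosomal proteins and others are found only in mitochondrial ribosomes. The oocyte supplies the mitochondria, and the stored messenger RNAs, with which the embryo starts.

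Libraries held 8358019 to 20446599 counts, and levels are given as CPM, which are counts scaled by the size of the library. At position -3, replicates 1 and 3 stood apart from the other oocytes, with 8814 and 8289 genes detected, against 9387 to 10054 in the other 10 libraries. Their 15 oocyte markers, such as rme-2, oma-1 and the eggshell gene cbd-1, summed to 1.62% and 1.43% of counts, against 2.06% to 3.92% elsewhere. In CPM, however, these markers summed to 20330 in replicate 1 of -3, above the 19724 of replicate 4 of -1. Replicate 3 of -3, at 14291 CPM, was the lowest on both scales. Markers of other cells each took under 1% of counts in all libraries. The 14 body wall muscle markers, of which 13 were measured and myo-3 was not, summed to 0.0447% to 0.112% of counts at -5, 0.0325% to 0.122% at -3 and 0.0886% to 0.171% at -1. The 9 markers of gonadal sheath and spermatheca, of which 6 were measured, summed to 0.0227% to 0.108% at -5, 0.00963% to 0.0242% at -3 and 0.0188% to 0.0379% at -1. Of 12 hypodermis and cuticle markers 6 were measured. These were all over 1.5-fold lower at -1 than at -5, where 13.6% of all measured genes were. In that comparison 9 of the 13 measured muscle markers were over 1.5-fold higher and 1 lower, against 11% of all measured genes higher. Of the 6 sheath and spermatheca markers 1 was higher and 3 were lower by that fold. The intestine list had 1 each way, and the neuron list 4 higher and 2 lower. As a share of counts the hypodermal list held 0.0121% to 0.0564% (-5), 0.00789% to 0.0221% (-3) and 0.00787% to 0.0107% (-1). The intestine list, with 9 of 13 measured, held 0.0131% to 0.0311% (-5), 0.00998% to 0.0156% (-3) and 0.00843% to 0.0337% (-1). For neurons 9 of 10 were measured, with shares of 0.0273% to 0.0432% (-5), 0.0196% to 0.0297% (-3) and 0.0258% to 0.0485% (-1). None of 12 sperm markers was measured. The part of RNA from other cells in the member values was not tested.

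The members together made up a small share of the transcripts at each position. They took 0.362% of counts at -5 (exact binomial interval at 95%, 0.361% to 0.364%), 0.349% at -3 (0.347% to 0.350%) and 0.368% at -1 (0.367% to 0.370%). These intervals, like all those below, cover counting error only. The summed level of the 70 genes averaged 3608 ± 217 CPM at -5, 3735 ± 577 CPM at -3 and 3419 ± 230 CPM at -1 (SD over 4 oocytes each). In CPM, single oocytes summed to 3332 to 3863 (-5), 3290 to 4509 (-3) and 3213 to 3748 (-1), so the positions overlapped. The highest sum, 4509 CPM, belonged to replicate 3 of -3, one of the oocytes that stood apart. All 70 members had at least 1 count in 11 of the 12 oocytes, and 69 had one in replicate 1 of -3, where mrpl-46 was at 0.

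**Figure D1:**
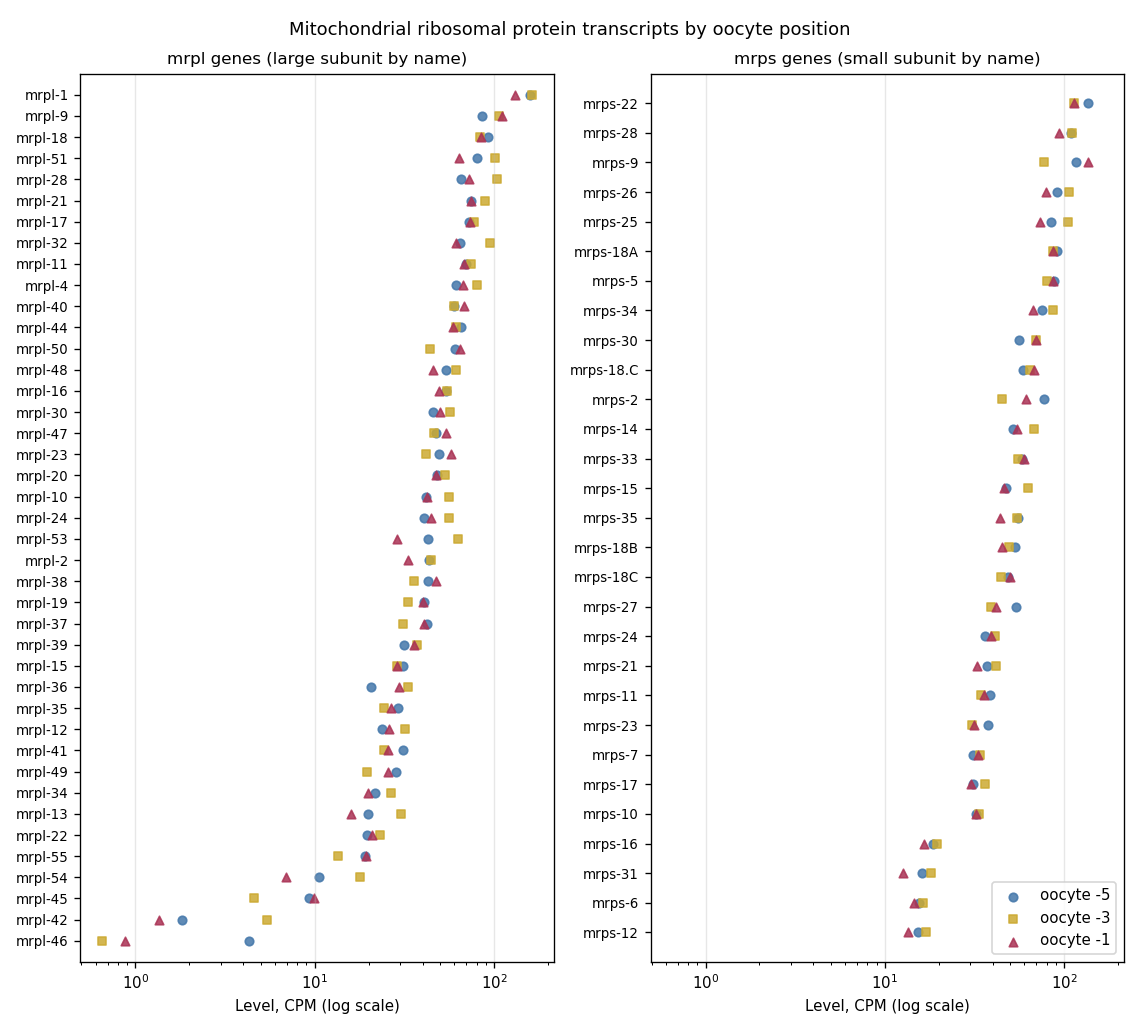
Level of each of the 70 members in CPM (log axis) at positions -5, -3 and -1, from the summed counts of 4 oocytes; mrpl genes on the left, mrps genes on the right, highest mean at the top. Most rows have their 3 symbols close together, and the widest gaps lie among the rarest genes, mrpl-46, mrpl-42 and mrpl-45.

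The most abundant member was mrpl-1, encoding the protein of the mobile L1 stalk past which spent transfer RNA leaves. It stood at 149, 168, 191 and 142.1 CPM at -5, at 213, 144, 125 and 167 CPM at -3 and at 149.8, 143, 137 and 101 CPM at -1. Pooled over oocytes, its levels were 159 CPM (156 to 163) at -5, 163 CPM (160.0 to 166) at -3 and 130.5 CPM (128 to 133) at -1, with exact Poisson intervals at 95%. The lowest of the 12 values was in a -1 oocyte and the highest in a -3 oocyte, and the positions overlapped. Next came mrps-22, a protein found only in mitochondrial ribosomes, at 99.8, 154, 114 and 163 CPM at -5, at 131, 100.1, 130.04 and 92.3 CPM at -3 and at 134, 85.1, 105 and 111 CPM at -1. The -5 oocytes held its 2 highest values, and the other -5 oocytes lay within the range of the older ones. The third was mrps-28, counted among the bacterial-type small-subunit proteins, at 100.2, 155, 112 and 81.1 CPM at -5, at 111, 111, 158 and 73 CPM at -3 and at 87.7, 152, 79.4 and 75.6 CPM at -1. Its values spread about as widely within each position as over all 12 oocytes.

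In CPM the means over 12 oocytes ran from 1.93 CPM for mrpl-46, 2.99 CPM for mrpl-42 and 7.77 CPM for mrpl-45 to 152 CPM for mrpl-1. This kit reads only transcript ends, for which length matters little, so the order of the genes is taken from CPM. The order per kilobase of exon is given beside it, although dividing by length raises short genes. Per kilobase mrps-28 came first at 149 CPM per kb, ahead of mrps-25 at 142.4, mrpl-18 at 137 and mrps-18A at 136 CPM per kb. By that measure mrpl-1, at 123 CPM per kb, ranked 8 instead of 1, whereas mrpl-46 at 1.8, mrpl-45 at 3.94 and mrpl-42 at 8.45 CPM per kb were the 3 lowest on both scales.

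Between the oldest and the youngest oocytes sampled, the members lay close to the middle of all genes. The median log2 ratio of -1 over -5 was -0.07, with 26 members higher and 44 lower at -1, against a median of -0.01 over all measured genes. None of the 70 was over 1.5-fold higher, where 11% of all measured genes were, and 2 were over 1.5-fold lower, where 13.6% were. Among genes of at least 20 CPM that fold was passed by 150 upward and 242 downward of 5185, and by none of the 61 members of that level. The 2 lower members were mrpl-46 and mrpl-54, both under 20 CPM and named after their values were seen. Leaving out replicate 1 or replicate 2 of -1 made the number over 1.5-fold lower 4, and leaving out replicate 3 of -1 made it 5. Without replicate 3 of -1 or replicate 2 of -5, 1 member was over 1.5-fold higher. The share of all measured genes past that fold was not counted with an oocyte left out. Without replicate 4 of -1 the median was 0.02.

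Oocyte -3 was set against each neighbour with the same oocytes, so these comparisons share samples with each other and with the one above. The median log2 ratio was -0.13 for -1 over -3, with 27 members higher and 43 lower, and 0.08 for -3 over -5, with 42 higher and 28 lower. All measured genes had medians of 0.02 and -0.01 in those comparisons. For -1 over -3, 2 members were over 1.5-fold higher, against 16.6% of all measured genes, and 6 were over 1.5-fold lower, against 19.9%. For -3 over -5, 5 were over 1.5-fold higher, against 17%, and 4 were over 1.5-fold lower, against 17.2%. Among genes of at least 20 CPM the gap to the background was smaller. For -1 over -3, 1 of the 61 members of that level was over 1.5-fold higher and 4 were lower, against 417 and 671 of the 5185 genes. For -3 over -5, 3 of the 61 were higher and 2 lower, against 470 and 407 of 5185.

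Those small medians at -3 turned on the oocytes that stood apart. Without both of them the median was 0.09 for -1 over -3, with 8 members over 1.5-fold higher and 3 lower. For -3 over -5 it was -0.08 without them, with 1 over 1.5-fold higher and 8 lower. The medians of all measured genes also moved without them, to 0.055 for -1 over -3 and -0.056 for -3 over -5. The share of all measured genes past 1.5-fold was not counted without them or with any single oocyte left out. Without replicate 3 of -3 alone the median of -3 over -5 was -0.06, against -0.03 over all measured genes. Leaving out replicate 1 of -1 put the median of -1 over -3 at -0.29. The number over 1.5-fold higher in -1 over -3 was 8 without replicate 1 of -3, 5 without replicate 2 or 3 of -3 or replicate 4 of -1, and 4 without replicate 4 of -3. For -3 over -5 that number was 2 without replicate 4 of -5, 3 without replicate 1 or 3 of -3, and 8 without replicate 4 of -3 or replicate 2 of -5. The number over 1.5-fold lower in -3 over -5 was 7 without replicate 1 of -3. Scaling by plain library totals moved the median of all measured genes to 0.21 for -1 over -3 and -0.13 for -3 over -5, and the member medians to 0.07 and -0.04, which turned both signs.

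**Figure D2:**
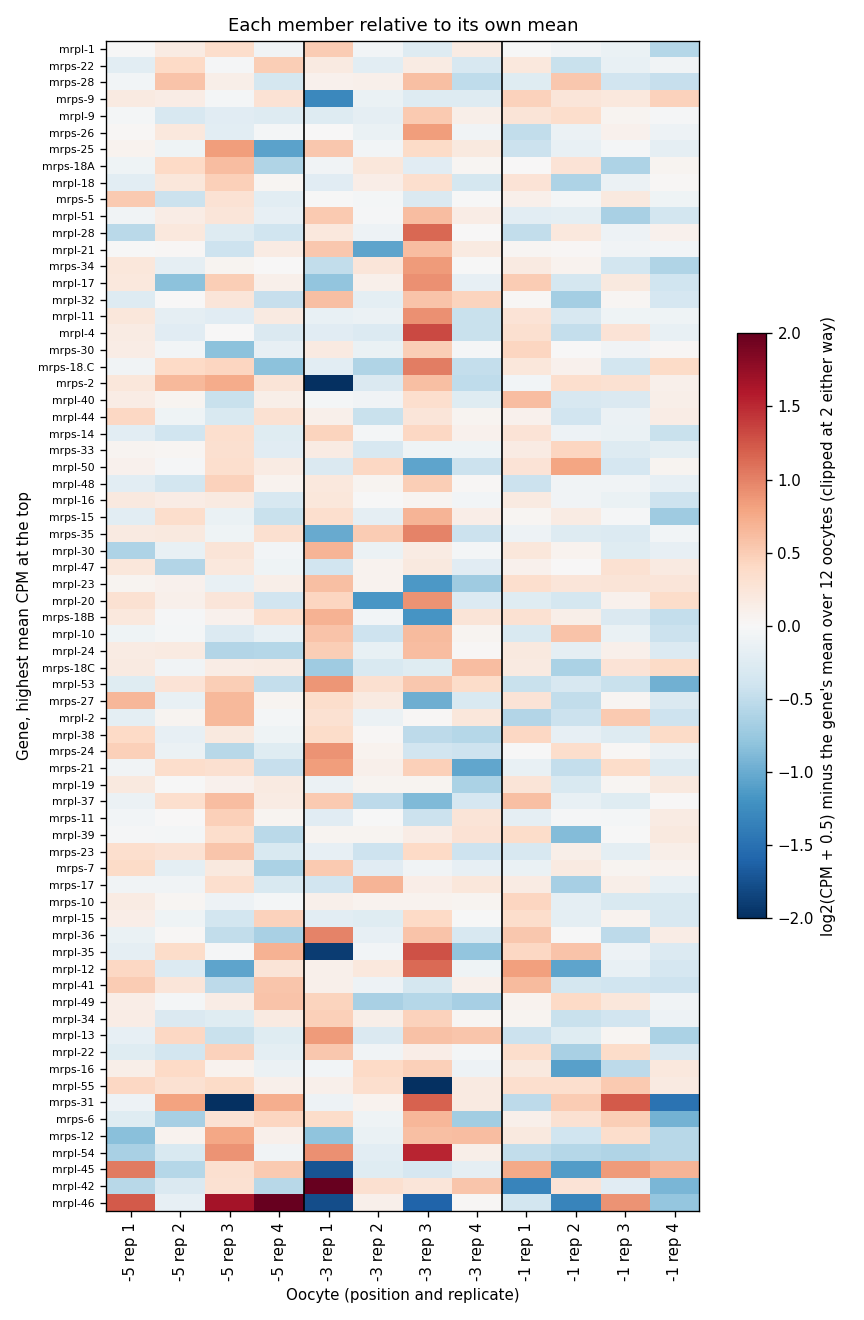
Difference of log2(CPM + 0.5) from the gene's mean over 12 oocytes for each member (rows, highest mean CPM at the top) in each oocyte (columns, -5, -3 and -1 from left to right, 4 replicates each). Replicates 1 and 3 of -3 hold the strongest colours among genes of ordinary level, in both directions, and the rarest genes at the bottom vary in all positions.

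The large-subunit proteins around the catalytic centre and the exit tunnel overlapped between positions in most cases. The mrpl-2 gene, whose product lies near the peptidyl transferase centre, stood at 35.2, 41.7, 63.7 and 39.1 CPM at -5, at 50.2, 37.4, 41.1 and 47.2 CPM at -3 and at 26.6, 29.8, 58.5 and 29.999 CPM at -1. In -1 over -5 its log2 ratio was -0.40, with replicate 3 of -1 far above the other -1 oocytes and inside the -5 range. Its neighbour at the catalytic centre, mrpl-16, was among the least variable members at 60.7, 58.3, 59.97 and 42.2 CPM at -5, at 62.1, 52.6, 54.8 and 50.9 CPM at -3 and at 60.02, 50.1, 47.9 and 39.6 CPM at -1. With a log2 ratio of -0.12 for -1 over -5, its positions overlapped throughout.

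Of the tunnel proteins, mrpl-4 stood at 73.4, 55.7, 66 and 53.4 CPM at -5, at 55.6, 53.9, 163 and 47.9 CPM at -3 and at 81.3, 46.6, 78.8 and 58.9 CPM at -1. Replicate 3 of -3 was far above the other 11 oocytes, and the log2 ratio of -1 over -3, -0.26, was 0.37 without that oocyte. For -3 over -5 the ratio of mrpl-4 was 0.40, and -0.23 without it. At the tunnel exit, mrpl-23 stood at 49.4, 50.4, 42.9 and 51.8 CPM at -5, at 72.3, 49.8, 21.1 and 29 CPM at -3 and at 60.5, 56.5, 57.2 and 56.3 CPM at -1. All 4 -1 oocytes lay above all 4 -5 oocytes, by a small margin and with a log2 ratio of 0.24, while the -3 oocytes spread on both sides. The third tunnel gene, mrpl-24, stood at 51.1, 52.1, 30.2 and 30.6 CPM at -5, at 64.8, 41.3, 70.1 and 46.8 CPM at -3 and at 52.4, 40.2, 49 and 37.6 CPM at -1. Its -3 oocytes had a log2 ratio of 0.47 over -5 and overlapped both other positions.

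The stalk that recruits translation factors is built on mrpl-10, mrpl-11 and mrpl-12. For mrpl-10 the oocytes stood at 43.2, 44.2, 37.8 and 41.2 CPM at -5, at 68, 34.2, 70.8 and 47.5 CPM at -3 and at 36.7, 68.1, 41.6 and 33.6 CPM at -1. Those of mrpl-11 stood at 79.2, 59.4, 57.4 and 77 CPM at -5, at 61.3, 62.6, 127 and 49.7 CPM at -3 and at 82.2, 54.2, 63.8 and 63.8 CPM at -1. In both genes replicate 3 of -3 was the highest value, and the ratios of -1 over -5 were close to 0, at 0.01 and -0.03. Transcripts of mrpl-12, the protein that carries the factor-binding domain, stood at 31.9, 19.7, 11.2 and 28.6 CPM at -5, at 25.7, 27.9, 53.1 and 22.5 CPM at -3 and at 42.7, 11.3, 21.4 and 18.7 CPM at -1. They varied several-fold within each position, and the ratio of -1 over -5, 0.12, was -0.47 without replicate 1 of -1.

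Among the other bacterial-type large-subunit genes, mrpl-9 stood at 95.8, 79.5, 84.7 and 83 CPM at -5, at 82.7, 87, 141.6 and 108 CPM at -3 and at 118, 126, 103 and 97.1 CPM at -1. All its -1 oocytes were above all its -5 oocytes, with pooled levels of 110.4 CPM (108 to 113) at -1 and 85.5 CPM (83.1 to 88.1) at -5 and a log2 ratio of 0.37. With mrpl-23 it was 1 of 2 members whose -1 and -5 oocytes did not overlap upward, a pattern found in 2.64% of all measured genes. The rarer mrpl-13 stood at 18.5, 28.1, 15.3 and 17.6 CPM at -5, at 38.3, 17.1, 31.8 and 30.9 CPM at -3 and at 15.4, 17.6, 21.4 and 13.4 CPM at -1. Its log2 ratios were -0.92 for -1 over -3 and 0.61 for -3 over -5. The last was 0.81 without replicate 2 of -5 and 0.47 without replicate 1 of -3. Replicate 2 of -3 lay among the -1 values.

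In mrpl-28, mrpl-32 and mrpl-36 the 2 oocytes that stood apart held the 2 highest of the 12 values. The mrpl-28 gene stood at 53.2, 89.5, 64.7 and 58.6 CPM at -5, at 89.6, 71.8, 172 and 78 CPM at -3 and at 54.9, 89.1, 71.6 and 82.3 CPM at -1. Replicate 3 of -3 reached nearly double the next -3 value, and the log2 ratio of -3 over -5, 0.66, was 0.28 without it. For mrpl-32, a zinc protein whose yeast and mouse counterparts are matured by the m-AAA protease, the oocytes stood at 59.1, 71.6, 84.3 and 51.2 CPM at -5, at 108, 61.8, 105 and 96.7 CPM at -3 and at 71.8, 44, 72.5 and 56 CPM at -1. Its log2 ratio of -1 over -3 was -0.63, or -0.75 without replicate 1 of -1 and -0.42 without both -3 oocytes that stood apart, and replicate 4 of -3, at 96.7 CPM, was also above all -5 and -1 oocytes. The small zinc protein gene mrpl-36 stood at 23.2, 26.2, 18 and 16.2 CPM at -5, at 51.3, 22.7, 38.3 and 20.5 CPM at -3 and at 37.6, 25.6, 17.7 and 28.6 CPM at -1. Its ratio of -3 over -5, 0.68, was 0.38 without replicate 1 of -3 and 0.03 without both, so it rested on those oocytes. In -1 over -5 its ratio was 0.52, the highest of the members, or 0.30 without replicate 1 of -1.

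In 4 of the 70 members all -1 oocytes were below all -3 oocytes, where 2.99% of all measured genes had that pattern. One of them, mrpl-53 (chromosome II, 9597622 to 9598201), for a protein found only in mitochondrial ribosomes, stood at 36.4, 51.9, 60.4 and 30.8 CPM at -5, at 79.8, 54, 62.7 and 55.5 CPM at -3 and at 31.5, 34.3, 31.5 and 21.9 CPM at -1. Every -1 oocyte was below every -3 oocyte, with pooled levels of 28.8 CPM (27.5 to 30.2) at -1 and 63.1 CPM (61.1 to 65) at -3 and a log2 ratio of -1.13. Without both -3 oocytes that stood apart this ratio was -0.91. Against -5 the ratio was -0.57 and the oocytes overlapped, through a -5 oocyte at 30.8 CPM.

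For mrpl-51 (chromosome IV, 12031314 to 12032154) the oocytes stood at 76.1, 88.6, 93.9 and 71.3 CPM at -5, at 114, 78.2, 122 and 88.4 CPM at -3 and at 68.8, 69.7, 50.5 and 61.6 CPM at -1. Its -1 oocytes lay below all others of both positions, the only member for which that held. Its log2 ratios were -0.34 for -1 over -5 and -0.67 for -1 over -3, and -1 over -3 gave -0.56 without replicate 3 of -3 and -0.39 without both oocytes that stood apart. The mrpl-48 gene stood at 46.1, 41.3, 73.8 and 56.3 CPM at -5, at 62.1, 55.3, 75.2 and 54.4 CPM at -3 and at 39.7, 50.7, 50.6 and 47.5 CPM at -1. Its -1 oocytes were below its -3 oocytes by less than 4 CPM at the nearest point, with a log2 ratio of -0.43, and they overlapped the -5 oocytes.

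**Figure D3:**
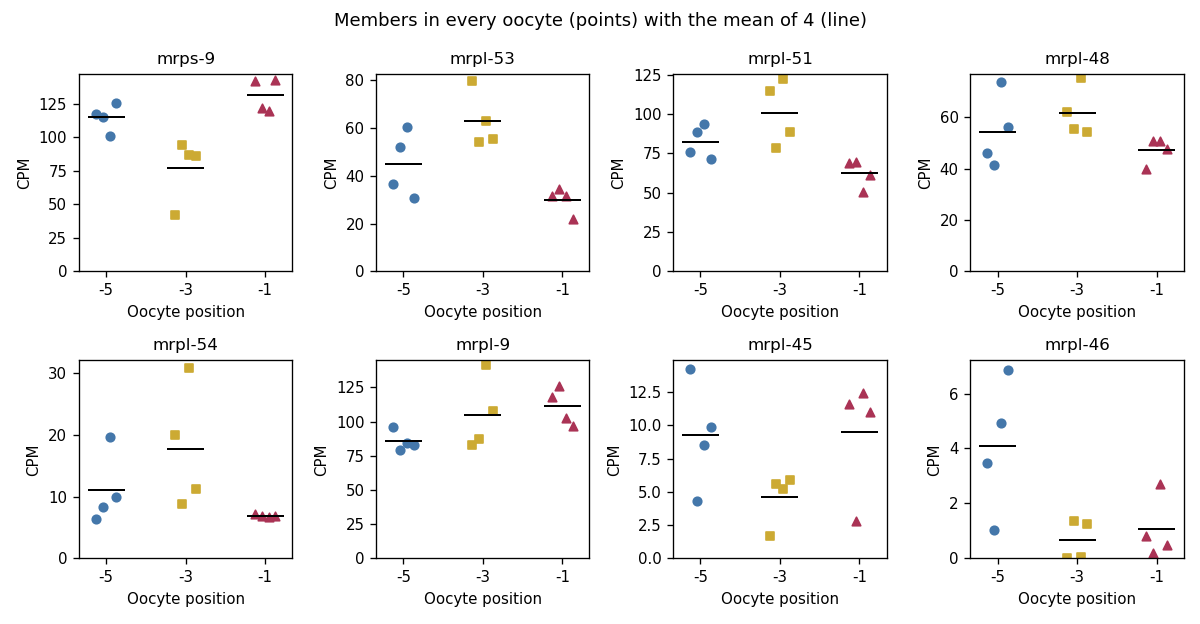
CPM (vertical axis, from 0) in each oocyte of 8 members at positions -5, -3 and -1, with the mean of 4 oocytes as a line. The -1 oocytes of mrpl-51 lie below all others, the -3 oocytes of mrps-9 lie below its others, and mrpl-54, mrpl-45 and mrpl-46 are shown on scales that end below 35 CPM.

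The rare mrpl-54 stood at 6.42, 8.3, 19.7 and 9.84 CPM at -5, at 19.9, 8.84, 30.8 and 11.3 CPM at -3 and at 7.21, 6.82, 6.62 and 6.88 CPM at -1. Its 4 -1 oocytes were tightly grouped and all below the -3 oocytes, at a log2 ratio of -1.37, which was -0.96 without replicate 3 of -3. In -1 over -5 its ratio was -0.61, or -0.27 without replicate 3 of -5, and the oocytes overlapped. In -3 over -5 the ratio was 0.76, but 0.35 without replicate 3 of -3 and -0.05 without both -3 oocytes that stood apart.

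The rarest member, mrpl-46, stood at 3.49, 1.03, 4.94 and 6.87 CPM at -5, at 0, 1.35, 0.062 and 1.23 CPM at -3 and at 0.828, 0.182, 2.69 and 0.498 CPM at -1. Its pooled levels were 4.3 CPM (3.76 to 4.89) at -5, 0.651 CPM (0.467 to 0.883) at -3 and 0.876 CPM (0.656 to 1.15) at -1, from 228, 41 and 53 counts. The 0 in replicate 1 of -3 allows up to 0.194 CPM, the level of 3 counts in that library. Its log2 ratio was -2.29 for -1 over -5, or -2.94 without replicate 3 of -1 and -1.79 without replicate 4 of -5. For -3 over -5 it was -2.72, or -3.46 without replicate 4 of -3 and -2.22 without replicate 4 of -5. Even so, replicate 2 of -5 lay within the range of the older oocytes. In -1 over -3 the ratio was 0.43, and 1.17 without replicate 4 of -3, at under 3 CPM in all 8 oocytes.

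The likewise rare mrpl-42 stood at 1.43, 1.82, 3.0 and 1.43 CPM at -5, at 12.3, 3.03, 2.85 and 3.65 CPM at -3 and at 0.633, 2.91, 1.91 and 0.997 CPM at -1. Its ratios of -2.01 for -1 over -3 and 1.58 for -3 over -5 were -1.23 and 0.80 without replicate 1 of -3, which held 190 of its counts. For mrpl-45, whose human counterpart ties the ribosome to the inner membrane, the oocytes stood at 14.3, 4.35, 8.53 and 9.84 CPM at -5, at 1.68, 5.55, 5.21 and 5.86 CPM at -3 and at 11.6, 2.82, 12.4 and 11 CPM at -1. It was lower at -3 than at -5, with a log2 ratio of -1.02, and -1 over -3 gave 1.11, but 1 oocyte at -1 and 1 at -5 fell inside the -3 range. Both mrpl-42 and mrpl-46 were named after their values were seen.

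The other mitochondria-specific large-subunit genes named by the rule overlapped between all positions. The mrpl-44 gene, whose human counterpart has a ribonuclease III fold, stood at 79.9, 55.9, 48 and 73.5 CPM at -5, at 63.9, 43.7, 70.4 and 61.8 CPM at -3 and at 62.9, 45.3, 54.8 and 65.7 CPM at -1. The mrpl-37 gene stood at 33, 45.3, 55.3 and 40.1 CPM at -5, at 51.7, 24.7, 19.1 and 28.1 CPM at -3 and at 54.2, 32, 30.3 and 36 CPM at -1. Its log2 ratio of -3 over -5 was -0.46, with replicate 1 of -3 above 3 of the -5 oocytes and the other -3 oocytes below all 4. Values of mrpl-49 were 26.1, 23.2, 26.4 and 35.7 CPM at -5, 32.6, 15.1, 15.9 and 14.8 CPM at -3 and 25, 31.5, 27.8 and 22.5 CPM at -1. Again replicate 1 of -3 stood apart, at about double the other 3 oocytes of its position. For mrpl-50 the oocytes stood at 58.4, 54, 69.1 and 61.4 CPM at -5, at 44.6, 72.9, 26.1 and 40.6 CPM at -3 and at 66.1, 95.4, 43.2 and 57 CPM at -1. Its ratio of -1 over -3, 0.56, was among the highest of the members, with the ranges overlapping widely.

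In the small subunit, mrps-9 was the member whose -3 oocytes overlapped neither neighbour. The mrps-9 gene (chromosome III, 8266062 to 8267841), whose bacterial counterpart reaches with its tail to the transfer RNA in the P site, stood at 118, 115, 101 and 126 CPM at -5, at 42.1, 93.9, 86.8 and 86 CPM at -3 and at 142.05, 122, 119.4 and 142.4 CPM at -1. All -3 oocytes were below all -5 and all -1 oocytes. Pooled levels were 116 CPM (114 to 119.3) at -5, 76.9 CPM (74.7 to 79.1) at -3 and 135 CPM (132 to 138) at -1. Its log2 ratio of -1 over -3 was 0.81, or 0.62 without both -3 oocytes that stood apart. In -3 over -5 it was -0.60, but -0.41 without replicate 1 of -3, which at 42.1 CPM was the lowest of the 12. No other member was upward separated in -1 over -3, where 3.44% of all measured genes were, or downward in -3 over -5, where 3.15% were.

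Counting separations over the whole family, 1 member, mrpl-51, was below in -1 over -5, where 2.89% of all measured genes were. In -1 over -3, 4 members were below, namely mrpl-51, mrpl-53, mrpl-48 and mrpl-54, as given above. No member was above in -3 over -5, where 2.86% were. Apart from those 4, no count was above 2 of 70.

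Other small-subunit genes of known role varied without separating the positions. The mrps-2 gene stood at 65.7, 88, 94.5 and 67 CPM at -5, at 10.6, 45.6, 85.4 and 39.3 CPM at -3 and at 53.6, 70.5, 69 and 60.3 CPM at -1. Its ratio of -3 over -5 was -0.77, or -1.30 without replicate 3 of -3 and -0.46 without replicate 1 of -3. That replicate 1, at 10.6 CPM, was far below all other oocytes. The mrps-5 gene, whose knockdown lengthens worm lifespan and triggers a mitochondrial stress response, stood at 122, 63, 103 and 72.9 CPM at -5, at 84.3, 82.7, 69.5 and 84.5 CPM at -3 and at 90.5, 82.1, 97.3 and 79.4 CPM at -1. Its pooled levels were 88.2, 80.3 and 86.3 CPM at -5, -3 and -1, and both log2 ratios with -1 on top were near 0, at -0.03 over -5 and 0.10 over -3.

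The decoding-centre protein gene mrps-12 was rare, at 7.76, 15, 24.8 and 15.4 CPM at -5, at 7.94, 13, 21.8 and 22.2 CPM at -3 and at 16.5, 10.7, 18.4 and 9.52 CPM at -1. The head protein gene mrps-7 stood at 42.5, 28.5, 37.4 and 20.9 CPM at -5, at 47.2, 27.9, 31.1 and 29.1 CPM at -3 and at 29.8, 36.9, 34.1 and 34.4 CPM at -1. Neither differed between positions by more than its oocytes differed among themselves, with ratios of -1 over -5 of -0.19 and 0.10. Of the mitochondria-specific genes, mrps-26 stood at 92.1, 105, 78.3 and 88.4 CPM at -5, at 91.3, 83, 163 and 86.3 CPM at -3 and at 64.2, 83.1, 95.8 and 84 CPM at -1. One -3 oocyte, replicate 3, was far above the remaining 11.

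The mrps-27 gene, whose human counterpart is a pentatricopeptide repeat protein, stood at 68.9, 38.9, 67.7 and 44.9 CPM at -5, at 55.2, 49.1, 21.7 and 34.8 CPM at -3 and at 52.6, 30.5, 44.6 and 35.2 CPM at -1. Its log2 ratio of -1 over -5 was -0.36, and the oocytes overlapped. The mrps-30 gene stood at 69.6, 60.2, 35.4 and 55.6 CPM at -5, at 70.7, 57, 88.7 and 61.3 CPM at -3 and at 84.2, 63.2, 59.8 and 63.3 CPM at -1. In human ribosomes this protein, like that of mrps-18A, sits in the large subunit. Its ratio of -1 over -5, 0.32, was 0.16 without replicate 1 of -1. Among the 32 members named by rule, mrpl-16 varied least over the 12 oocytes, and over all members of at least 20 CPM the least variable was mrps-10, with a standard deviation of 0.21 in log2.

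By subunit, the mrpl genes had median log2 ratios of -0.03 for -1 over -5, -0.15 for -1 over -3 and 0.11 for -3 over -5. The mrps genes had medians of -0.13, -0.08 and 0.06. Placing mrps-18A and mrps-30 in the large subunit, as in human ribosomes, gave -0.03, -0.13 and 0.11 for the large subunit and -0.17, -0.13 and 0.06 for the small one. By descent, the 44 bacterial-type members had a median of -0.02 in -1 over -5 and the 26 mitochondria-specific members -0.21. In -1 over -3 these medians were -0.16 and 0.002, and in -3 over -5 they were 0.12 and -0.05, so the order of the classes was not the same in each comparison.

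A score was computed for each oocyte as the mean over genes of log2(CPM + 0.5) minus the gene's mean over the 12 oocytes. Over the 26 mitochondria-specific members the -1 oocytes scored -0.20 to 0.01, all below the -5 oocytes at 0.03 to 0.15. With only the 20 of them at 20 CPM or more, a choice made after seeing the data, the ranges were -0.19 to 0.09 at -1 and -0.01 to 0.14 at -5 and overlapped. The 26 also overlapped with plain library totals, at -0.24 to 0.23 at -1 and -0.07 to 0.27 at -5, and so did the 24 of at least 5 CPM, at -0.15 to 0.07 at -1 and 0.03 to 0.13 at -5. The hypodermis and cuticle markers, computed in the same way, scored -0.77 to -0.35 at -1 and 0.40 to 1.05 at -5, and their part in the member scores was not tested. The bacterial-type members scored -0.15 to 0.12 at -1 and -0.10 to 0.08 at -5, which overlapped. Over all 70 the scores were -0.03 to 0.10 at -5, -0.09 to 0.21 at -3 and -0.17 to 0.08 at -1.

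**Figure D4:**
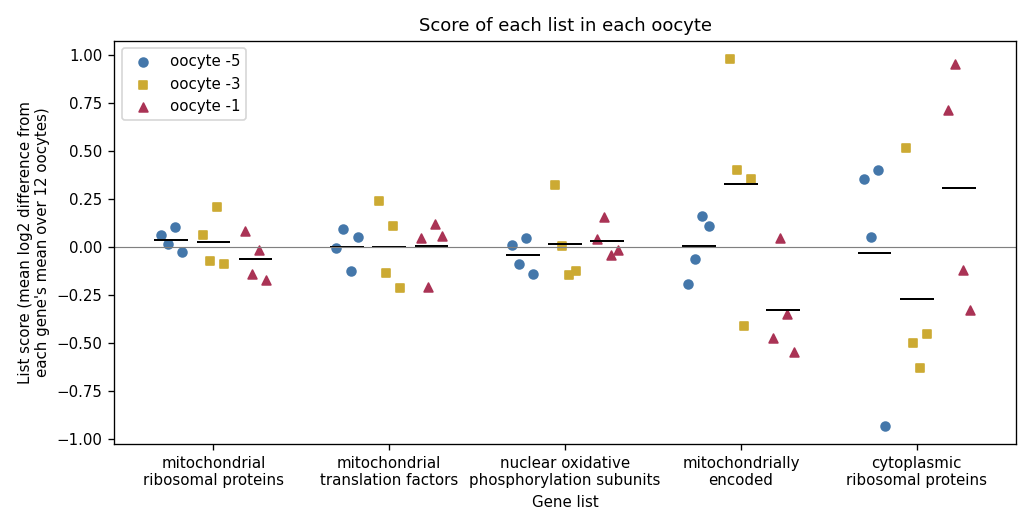
Score of 5 gene lists (mean log2 difference from each gene's mean over 12 oocytes) in each oocyte at -5, -3 and -1, with the mean of 4 as a line. Scores of the mitochondrial ribosomal proteins stay within -0.17 to 0.21, whereas those of the cytoplasmic ribosomal proteins run from -0.93 to 0.95 and those of the mitochondrially encoded genes from -0.55 to 0.98.

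The cytoplasmic ribosomal protein genes, which build the ribosomes of the cytosol, had median log2 ratios of 0.45 for -1 over -5, 0.61 for -1 over -3 and -0.18 for -3 over -5. Without both -3 oocytes that stood apart the last 2 were 0.91 and -0.49. Of their 80 measured genes 77 were higher at -1 than at -5, and 17 were over 1.5-fold higher. That fold was passed upward by 11% of all measured genes and by 150 of 5185 of at least 20 CPM. In 1 of the 80 every -1 oocyte was above every -5 oocyte, a pattern found in 2.64% of all measured genes. The scores of this list also overlapped between positions, at -0.33 to 0.95 at -1 and -0.93 to 0.40 at -5. The median standard deviation over the 12 oocytes was 0.37 in log2 for the 61 members of at least 20 CPM (0.21 to 0.83), 0.67 for 78 cytoplasmic genes and 0.40 for all 5185 measured genes of that level.

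Pairs of members were little correlated. Across the 12 oocytes, which share their library and scaling within each point, the median Pearson r between pairs of members of at least 20 CPM was 0.09 over 1830 pairs. Between pairs of cytoplasmic ribosomal protein genes it was 0.85 over 3003 pairs, between members and cytoplasmic genes 0.05, and between all measured genes 0.00. The members most like the mean of the others were mrpl-4 at r = 0.76, mrpl-11 at 0.68 and mrpl-16 at 0.67. The scores of the mrpl and mrps genes had r = 0.59 and Spearman's rho = 0.55 over 12 oocytes. Against the score of 19 measured genes of protein import and mitochondrial chaperones, the member score had r = 0.86 and rho = 0.81, and against the cytoplasmic ribosomal proteins r = 0.07 and rho = 0.16. These correlations describe 12 oocytes, among them the 2 that stood apart, and without those r was 0.83 for the import list and 0.29 for the cytoplasmic ribosomal proteins. The score of the body wall muscle markers had r = 0.42 and rho = 0.69 with the member score, and r = 0.61 without those oocytes. The part of muscle RNA in the member score was not tested.

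**Figure D5:**
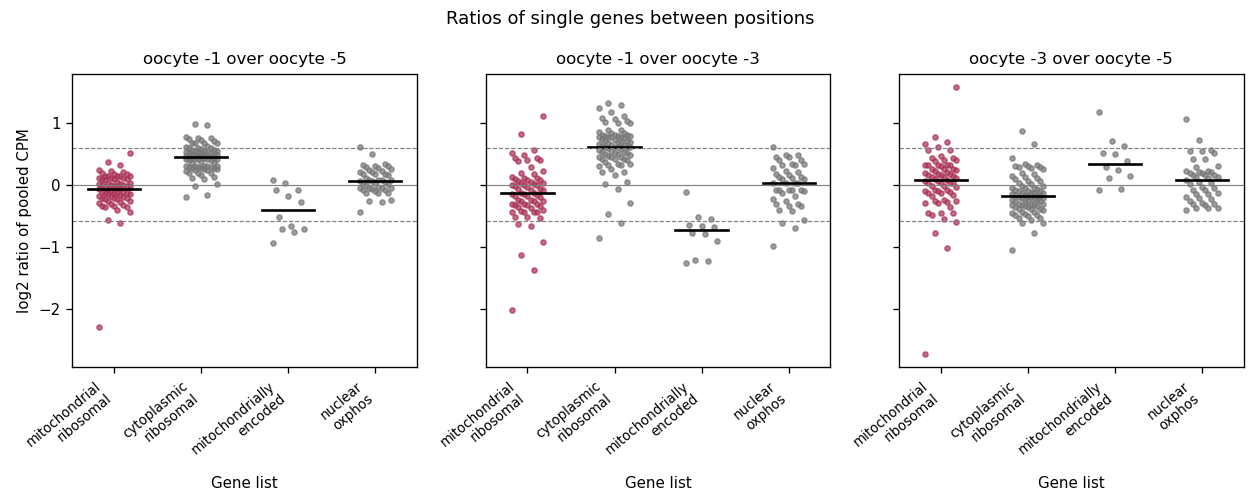
log2 ratio of pooled CPM for single genes of 4 lists, with -1 over -5 on the left, -1 over -3 in the middle and -3 over -5 on the right; black lines are medians and dashed lines mark 1.5-fold. The mitochondrial ribosomal proteins centre near 0 in all panels, at -0.07, -0.13 and 0.08, whereas the cytoplasmic ones centre at 0.45, 0.61 and -0.18.

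The messenger RNAs that this ribosome translates had other ratios than its protein genes. The 12 protein-coding genes of the mitochondrial genome had median log2 ratios of -0.40 for -1 over -5, -0.73 for -1 over -3 and 0.34 for -3 over -5, and all 12 were lower at -1 than at -3. Without both -3 oocytes that stood apart the last 2 medians were -0.74 and 0.27, and all 12 were again lower at -1. Their scores ranged from -0.55 to 0.04 at -1, from -0.41 to 0.98 at -3 and from -0.19 to 0.16 at -5. All positions overlapped in score. In 1 of the 12 genes every -1 oocyte was below every -3 oocyte, a pattern found in 2.99% of all measured genes. The 45 nuclear subunits of the respiratory chain and ATP synthase had medians of 0.07, 0.03 and 0.08, or 0.21 for -1 over -3 and -0.08 for -3 over -5 without those oocytes. For the RNA core of the mitochondrial ribosome, the large ribosomal RNA stood at 1797 CPM at -5, 2030 CPM at -3 and 1730 CPM at -1. The small ribosomal RNA stood at 88.9, 106 and 75.4 CPM. In CPM, single oocytes held between 1478 and 2639 of the large one at -5, between 758 and 2859 at -3, and between 603 and 2810 at -1. This kit primes on poly(A), so these 2 values describe polyadenylated or internally primed RNA and not the amount of ribosome. The values of the 12 mitochondrial messenger RNAs rest on the same priming.

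Other genes of mitochondrial translation were set beside the members. The 14 matched genes of the translation factor list, which also held oxa-1 and dap-3, are not all translation factors. They had medians of 0.02 for -1 over -5, 0.01 for -1 over -3 and -0.05 for -3 over -5. None was over 1.5-fold apart in any comparison. Without both -3 oocytes that stood apart the medians were 0.28 for -1 over -3 and -0.25 for -3 over -5. In that list oxa-1, which inserts newly made proteins into the inner membrane, stood at 76.5, 59.4 and 56.5 CPM at -5, -3 and -1. The elongation factor gene tufm-2 stood at 63.9, 64.5 and 73.9 CPM. The dap-3 gene, whose human counterpart is a small-subunit protein but which carries no mrps symbol, stood at 38.4, 35.6 and 47.8 CPM. Of the 12 matched mitochondrial aminoacyl-tRNA synthetases, 11 were lower at -1 than at -5, with a median of -0.21 and none over 1.5-fold. Their medians were 0.03 for -1 over -3 and -0.25 for -3 over -5, with 1 synthetase over 1.5-fold lower in each.

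By position in the genome, given as chromosome and coordinates of the count table, 22 of the 70 members lay on chromosome III, which is 31.4% of them. That chromosome holds 13.2% of all protein-coding genes and 19.1% of the measured ones. None lay on the X chromosome, which holds 13.6% of all protein-coding genes and 11.7% of the measured ones. Chromosomes I, II, IV and V held 15, 12, 11 and 10 members. The genes mrps-2 (chromosome V, 8465617 to 8467159) and mrpl-4 (chromosome V, 8467265 to 8468943) are neighbours on the same strand, 105 bases apart, and their levels over the 12 oocytes had r = 0.30. Some members share exon sequence with an overlapping gene, up to 11.3% of the exon bases in mrpl-34, 10.3% in mrpl-44 and 10.1% in mrps-16, and counting without strand leaves reads there uncertain.

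In the authors' deposited table of each comparison the members had median log2 fold changes of -0.09 for -1 over -5, -0.16 for -1 over -3 and 0.08 for -3 over -5. The sign in the authors' deposited table was the same as that of the ratio given here for 64, 64 and 67 of the 70 members.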

How the data were processed

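RNA of 12 oocytes, 1 per library, was sequenced with a 3'-end kit without molecular identifiers. The deposited table gives whole-number counts per gene, not normalized by the authors, and an exonic length per gene. Per the submitters' processing notes, the tools were cutadapt 1.18 for trimming, FastQC 0.11.5 for quality, STAR for alignment and featureCounts 1.5.3 for counting. For the last, the file header names version 1.6.4 and the WormBase WS271 annotation, with no option for strand or overlapping genes. No genome build is named in the sources used here. The authors' deposited comparison tables, made with DESeq2 1.32.0 per the submitters' processing notes, give log2 fold changes, of which only those of the members were used. The number of unused per-sample columns was 0.

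Genes were filtered with edgeR 4.0.16 in R 4.3.3 (filterByExpr by position, 8718 kept) and library sizes scaled with TMM factors. The level at a position is the count summed over its 4 oocytes, divided by the sum of the scaled library sizes (CPM), with an exact Poisson interval at 95%. A ratio compares 2 levels, with sums under 3 counts set to 3 over the position. Ratios past 1.5-fold were counted, with no test. The ratio code was tested on simulated data. Totals of 8358019 to 20446599 counts per library put 3 counts at 0.146 to 0.336 CPM.

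The members and all lists were chosen with earlier results of these data known. The rule named the 6 members of highest mean CPM, the 4 highest and 4 lowest ratios of each comparison and the non-overlapping members, all of at least 20 CPM, and 12 members for their role, 32 in all; mrpl-42, mrpl-46 and mrpl-54 were added after their values were seen. Of the symbols listed, 14 of 26 in the translation factor list, 12 of 17 synthetases and 6 of 11 genes of gene expression and DNA maintenance matched the table. Mitochondrially encoded genes were taken by chromosome, since no symbol of that list matched. Alternatives were DESeq2 1.42.0 size factors, plain totals, other filters, equal weights, thinning to 8358019 counts and left-out oocytes. Python 3.11.15 with pandas 2.3.3 and scipy 1.17.1 was used.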

Additional observations from a re-analysis of the deposited data

Results flagged for a closer look

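In 99 groups of 4 oocytes looked at, 10 had 1 oocyte far from the other 3 of its position, meaning that its gap to the nearest, as a share of the group's range, was above Dixon's critical value at 95%. By that choice of level, chance flags about 1 group in 20. In replicate 1 of -3, mrps-9 was far below the others at 42.1 CPM, mrpl-45 far below at 1.68 CPM and mrpl-49 far above at 32.6 CPM. Replicate 3 of -3 was far above for mrps-26 at 163 CPM and for mrpl-4 at 163 CPM, and far below for mrps-5 at 69.5 CPM. Thus 6 of the 10 lay in the 2 oocytes with the fewest genes detected. At -1, mrpl-2 was far above in replicate 3 at 58.5 CPM, mrps-30 far above in replicate 1 at 84.2 CPM and mrpl-45 far below in replicate 2 at 2.82 CPM. At -5, mrpl-16 was far below in replicate 4 at 42.2 CPM.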

How the results depend on the processing

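The results rest on 4 oocytes per position, no named animals and no test, and the smallest ratios lie within what 1 oocyte can move. Leaving out 1 oocyte at a time, the member median ran from -0.14 to 0.02 for -1 over -5, from -0.29 to -0.051 for -1 over -3 and from -0.058 to 0.20 for -3 over -5. The number over 1.5-fold higher ran from 0 to 1, 2 to 8 and 2 to 8 in that order. The number over 1.5-fold lower ran from 2 to 5, 4 to 9 and 3 to 7. The share of all measured genes past 1.5-fold was not counted in any alternative of this section. With plain library totals -1 over -5 had 1 member higher and 1 lower. In that setting -1 over -3 had a median of 0.066 with 10 higher, and -3 over -5 a median of -0.037 with 2 higher. The medians of all measured genes were then 0.066 for -1 over -5, 0.21 for -1 over -3 and -0.13 for -3 over -5. Requiring a mean of 5 CPM left 1 lower in -1 over -5, as did weighting oocytes equally, which gave 4 higher in -1 over -3 and 3 higher in -3 over -5. Without both -3 oocytes that stood apart, -1 over -3 had a median of 0.088 with 8 higher and 3 lower. There -3 over -5 had a median of -0.083 with 1 higher and 8 lower, and mrpl-54 in -3 over -5 turned to -0.047. The medians of all measured genes in that setting were 0.055 for -1 over -3 and -0.056 for -3 over -5. For their positions, replicate 1 of -1 and replicate 4 of -5 had the most muscle, sheath and neuron markers by share of counts. They had the least of the intestine list. Without both of these oocytes, -1 over -5 had 4 lower, -1 over -3 a median of -0.28 and -3 over -5 had 3 higher. The cause was not tested. DESeq2 size factors, no filter and thinning kept the medians and counts within 1 SD or 1.5 times. No paired analysis was possible because the labels tie no oocyte to an animal and the results come from no test.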

Other observations

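Around the mitochondrial ribosome, some genes of the lists not described above were apart between -1 and -5. The mppa-1 gene, for the alpha subunit of the peptidase that cleaves import signals, stood at 28.2, 44.7, 34.2 and 23.8 CPM at -5, at 40.1, 19.2, 57.6 and 12.1 CPM at -3 and at 6.28, 11.6, 17.3 and 2.99 CPM at -1. All its -1 oocytes were below all its -5 oocytes, with a log2 ratio of -2.04. Of the 19 measured import and chaperone genes it alone had that pattern, which 2.89% of all measured genes had. The mtss-1 gene, for the mitochondrial single-stranded DNA-binding protein, stood at 35.8, 39.1, 38.3 and 25.1 CPM at -5, at 31.2, 31.8, 46.8 and 23.1 CPM at -3 and at 56, 44.1, 41.4 and 43.8 CPM at -1. All its -1 oocytes were above all its -5 oocytes, with a log2 ratio of 0.51. It was 1 of 5 measured genes of gene expression and DNA maintenance, and the others lacked that pattern, which 2.64% of all measured genes had. The mitochondrial RNA polymerase gene rpom-1 stood at 62.5, 38.9 and 54.2 CPM at -5, -3 and -1. Of the proteases and stress regulators, lonp-1 stood at 146, 136 and 168 CPM and atfs-1, the regulator of the mitochondrial unfolded protein response, at 199, 166 and 185 CPM. The 8 measured genes of that list had a median log2 ratio of 0.11 in -1 over -5, with none over 1.5-fold. The 19 measured import and chaperone genes had a median of 0.00, with mppa-1 the only one over 1.5-fold.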
